A study of Mus musculus with 6 samples.

Results

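Mammary stem and progenitor markers were examined as 9 genes taken by symbol from a table of 15280 mouse genes, and all 9 were in it. These were the surface markers *Cd44*, *Cd24a*, *Prom1* and *Procr*, the reprogramming factors *Klf4* and *Myc*, the Sox transcription factors *Sox9* and *Sox10*, and the polycomb gene *Bmi1*. They were measured by RNA-Seq in mammary tumors of BK5.ATF3 mice, in which the keratin 5 promoter drives the stress-inducible transcription factor ATF3 in basal epithelial cells. Each of 3 transgenic females that had raised a litter gave 1 tumor (libraries T11035, T11640 and T9232) and 1 adjacent normal mammary gland (M11035, M11640 and M9232). Tumors appeared at ages from 6 to 12 months and were taken once 1.5 cm long. Both tissues carry the transgene and both come from tumor-bearing mice, so mice with and without it are not compared. Whether expression of the transgene differed between the tissues was not tested. The age of each mouse was not given. Values are CPM, fragment counts scaled to the size of the library, and libraries held 4750989 to 7806908 fragments, so that 3 fragments correspond to 0.393 to 0.610 CPM.

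The mammary epithelium has an outer basal layer and an inner luminal layer, and stem and progenitor cells of both have been defined by transplantation and lineage tracing. CD44, a receptor for the matrix polysaccharide hyaluronan, and CD24, a small glycoprotein anchored in the outer membrane, are used together to sort stem-like cells from breast tumors. PROM1 (CD133) is a membrane protein of cellular protrusions, and PROCR is the endothelial receptor for protein C that also marks a subset of basal mammary cells. KLF4 and MYC, with OCT4 and SOX2, return differentiated cells to pluripotency. SOX9 and SOX10 act in mammary progenitors, and BMI1 is a subunit of polycomb repressive complex 1 (PRC1) that sustains self-renewal.

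To show the regulatory sequence of markers with different outcomes, the 250 bases before the start are printed for *Cd44* and *Klf4*, which had the largest increases, and for *Procr*, which did not pass the test. They were taken from the RefSeq promoter table (GRCm38.p6), which held 5 of the 9 markers and did not hold *Cd24a*, *Myc*, *Sox9* or *Sox10*. Each sequence is on the strand of the gene, and capitals mark a match to the AP-1 motif TGANTCA (N is any base), to the cyclic AMP response element TGACGTCA, or to the E-box CACGTG, which MYC and related factors bind. The *Cd44* window lies at chr2:102901666-102901915 (minus strand), the *Klf4* window at chr4:55532476-55532725 (minus strand) and the *Procr* window at chr2:155750967-155751216 (plus strand).
Cd44: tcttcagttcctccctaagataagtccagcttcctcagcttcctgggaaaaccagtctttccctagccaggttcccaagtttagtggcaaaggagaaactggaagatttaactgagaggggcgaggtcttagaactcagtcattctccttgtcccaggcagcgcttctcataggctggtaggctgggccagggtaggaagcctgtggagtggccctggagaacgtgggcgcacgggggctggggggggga
Klf4: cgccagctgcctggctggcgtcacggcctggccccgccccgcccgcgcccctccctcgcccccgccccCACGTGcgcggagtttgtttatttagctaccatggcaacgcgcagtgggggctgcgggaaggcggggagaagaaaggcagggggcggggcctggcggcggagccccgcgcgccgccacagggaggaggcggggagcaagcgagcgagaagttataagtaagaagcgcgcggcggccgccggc
Procr: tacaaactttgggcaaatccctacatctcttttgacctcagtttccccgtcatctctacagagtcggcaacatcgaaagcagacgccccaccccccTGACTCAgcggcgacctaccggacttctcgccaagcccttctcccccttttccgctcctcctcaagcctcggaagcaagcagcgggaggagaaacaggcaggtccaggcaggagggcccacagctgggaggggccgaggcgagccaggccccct
The *Cd44* window held none of the 3 motifs and had a GC content of 56.4%. The *Klf4* window had a GC content of 74.0%, with 1 E-box at position -182 from the start. Its 4 GC boxes (GGGCGG on either strand) did not overlap the E-box, although a pair of them shares 1 base, and are left in lower case. The *Procr* window held 1 AP-1 match, at position -154. Over the 32851 windows of the table, cut to the same length, and counting both strands, 6.75% held the AP-1 motif, 1.55% the cyclic AMP response element, 6.02% the E-box and 32.7% a GC box. Of the markers not printed, *Bmi1* had 1 E-box at position -215 and 6 GC boxes, and *Prom1* had AP-1 matches at positions -88 and -189. Neither was called, so motif and outcome did not go together. These matches describe letters only.

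Some facts of the libraries bear on all 9 markers. All 10 adipocyte marker genes were downregulated in tumors, from a summed 3541–6856 CPM in normal glands to 169–227 CPM. All 8 B cell genes were also downregulated, from 199–530 CPM to 8.78–11.2 CPM. Of 14 pan-epithelial genes, 10 were upregulated, and their summed level rose from 345–797 to 1214–1554 CPM. Normal glands were uneven, with 8 skeletal muscle genes summing to 4332, 1627 and 5.33 CPM in M11035, M11640 and M9232, and 9 alveolar genes to 53122 CPM in M9232 against 3460 and 5323 CPM in the other glands. In bulk tissue, fewer cells of a type and less RNA per cell cannot be told apart. The mouse is the replicate (n = 3 per tissue), and the markers are not replicates of one another.

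Among the 9 markers, 3 were upregulated in tumors (*Cd44*, *Klf4* and *Cd24a*), 1 was downregulated (*Sox10*) and 5 were not called. A gene was called at an adjusted p of at most 0.05 with a fold change of at least 2 (limma on log2(CPM + 0.5), Benjamini-Hochberg over all 15280 genes). Of all genes, 28.2% were called, 14.5% upward and 13.7% downward. With the adjusted p alone, 5 markers passed, the fifth being *Myc*, which lost it in 3 of the 6 fits without 1 library, against 41.2% of all genes. The tumor and gland libraries did not overlap for 4 markers, *Cd44*, *Klf4* and *Myc* above and *Sox10* below, against 54.0% of all genes. A set of 9 genes is too small for these shares to say anything particular to the markers. The median log2 fold change of the markers was 0.29, and that of all genes was -0.00276.

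**Figure D1:**
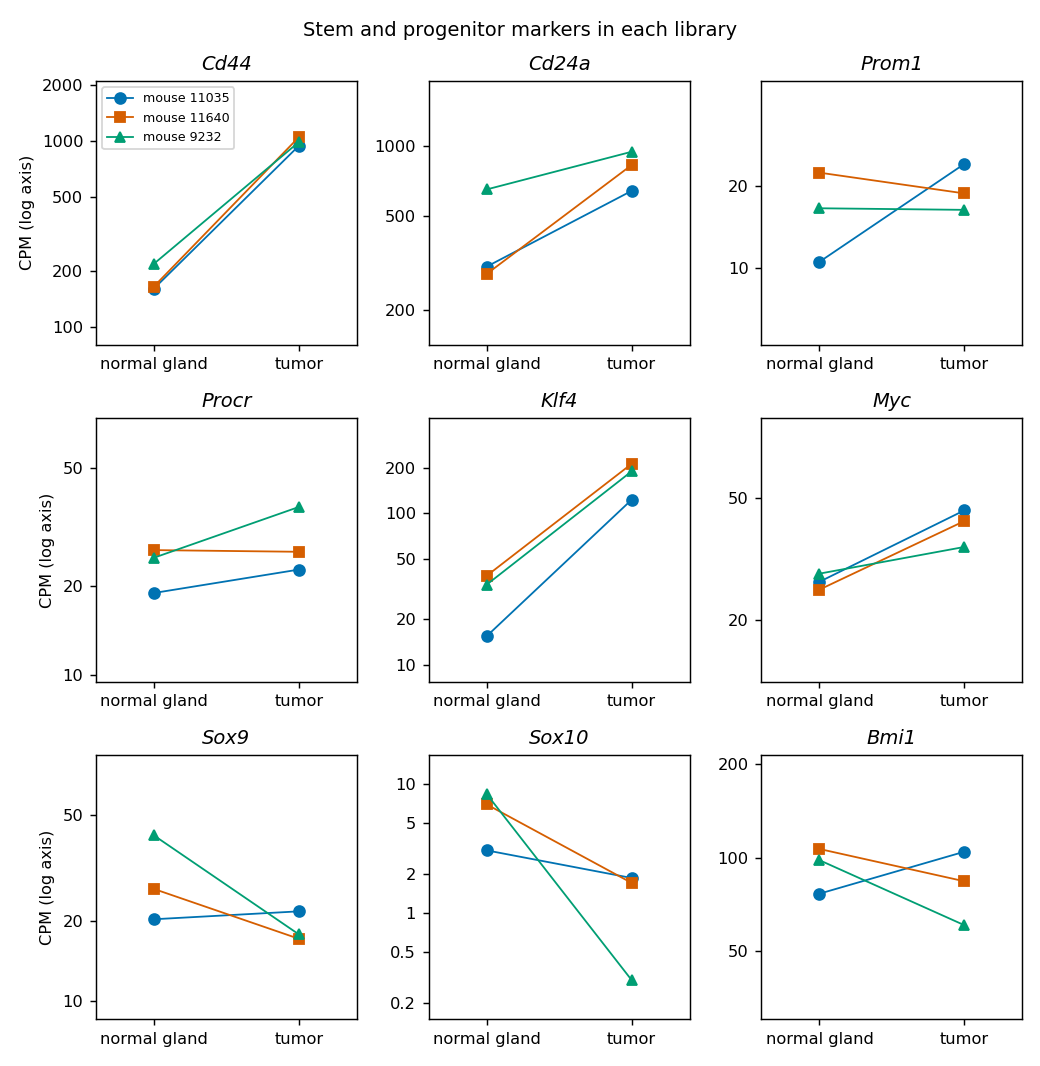
CPM of each of the 9 markers (log axis, a range of its own in each panel) in the 3 normal glands and the 3 tumors, with a line joining the tissues of each mouse. All 3 lines rise for Cd44, Cd24a, Klf4 and Myc, all 3 fall for Sox10, and the lines of the other 4 markers run in different directions.

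*Cd44* showed the clearest difference of the surface markers. The gene (chromosome 2, 102651298 to 102741822, minus strand, mm9) had 161, 165 and 218 CPM in the glands (in the order M11035, M11640, M9232, kept throughout). Tumors T11035, T11640 and T9232 had 940, 1047 and 984 CPM. Every tumor was far above every gland, and the spread within each tissue was small. The mean rose from 181 ± 32.2 to 990 ± 53.4 CPM (SD, n = 3 each). The log2 fold change was 2.46 (SE 0.15, 95% confidence interval 2.11 to 2.81, limma adjusted p = 9.75e-06), or 5.50-fold. The increase was seen in 3 of 3 mice, with log2 fold changes of 2.55, 2.66 and 2.17. No near-identical copy of *Cd44* (at least 95% over 500 bases) was found elsewhere in the genome.

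*Cd24a* rose less and less evenly. It lies on chromosome 10 (43298975 to 43304068, plus strand) and had 305, 284 and 650 CPM in the glands and 641, 826 and 941 CPM in the tumors. The tissues overlapped, since gland M9232 was slightly above tumor T11035. Means were 413 ± 206 CPM in glands and 803 ± 151 CPM in tumors, a log2 fold change of 1.05 (SE 0.31, interval 0.35 to 1.74, limma adjusted p = 0.0244). The fold lay just past the threshold. Mouse by mouse, the log2 fold change was 1.07, 1.54 and 0.53. The call was lost in 7 of 15 alternative analyses, including edgeR (log2 fold change 0.96), DESeq2 (0.97) and the fits without gland M11035 (0.88), gland M11640 (0.83), tumor T11640 (adjusted p = 0.0827, limma) or tumor T9232 (0.92). A copy on chromosome 14 is 96.5% identical over 1329 bases, so some fragments may be shared with it. *Cd24a* is expressed by both epithelial cells and B cells, whose marker lists moved in opposite directions, and by neutrophils. Of 6 neutrophil genes in the table, which did not hold *Ly6g* or *Elane*, 4 were upregulated and 1 was downregulated. Their summed level was 74.2–167 CPM in glands and 819–1409 CPM in tumors. All 8 T cell genes were downregulated, from 256–597 to 33.5–56.3 CPM, and T cells and neutrophils also carry *Cd44*. The part of these cells in the *Cd24a* and *Cd44* results was not tested.

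*Prom1* was low and did not pass the test. Glands had 10.6, 22.3 and 16.6 CPM and tumors 24.0, 18.7 and 16.3 CPM, so that the tissues overlapped (chromosome 5, 44384864 to 44493271, minus strand). Its log2 fold change was 0.29 (SE 0.29, interval -0.36 to 0.94, limma adjusted p = 0.438). The sign differed among mice, with 1.15 for T11035 against M11035, -0.24 for T11640 against M11640 and -0.02 for T9232 against M9232. *Prom2*, the other prominin and a marker of epithelial protrusions, went from 5.49, 5.45 and 2.46 CPM in glands to 41.9, 49.9 and 45.0 CPM in tumors. All tumors were thus well above all glands for *Prom2* (log2 fold change 3.28, SE 0.29, limma adjusted p = 5.59e-05). Whether the prominins differed in their response was not tested. The opposite-strand gene *Gm16401* overlaps exons of *Prom1*, and the strand setting of the counting was not given.

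*Procr* (chromosome 2, 155576853 to 155581207, plus strand) also overlapped between tissues. Its levels were 18.9, 26.4 and 24.9 CPM in glands and 22.7, 26.1 and 37.0 CPM in tumors. The log2 fold change was 0.27 (SE 0.23, interval -0.26 to 0.79, limma adjusted p = 0.383), and the highest value came from tumor T9232. Of 9 genes of the protein C pathway in the table, 2 were upregulated and 1 was downregulated. The extremes were *Sphk1*, a sphingosine kinase (0.884 ± 0.244 to 4.79 ± 1.56 CPM, log2 fold change 1.91), and *S1pr1*, a sphingosine 1-phosphate receptor of endothelial cells (126 ± 24.2 to 44.4 ± 7.75 CPM, -1.49). Of 10 endothelial markers, 3 were downregulated, with a summed level of 388–528 CPM in glands and 229–320 CPM in tumors. Endothelial cells are another source of *Procr*, and their part in its level was not tested.

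*Klf4*, a zinc finger factor of epithelial differentiation as well as reprogramming, had the largest fold change of the 9 markers. On chromosome 4 (55540013 to 55545347, minus strand), it had 15.5, 38.7 and 33.8 CPM in glands and 123, 212 and 189 CPM in tumors. The lowest tumor lay well above the highest gland. Mean levels were 29.3 ± 12.2 and 175 ± 46.3 CPM, giving a log2 fold change of 2.62 (SE 0.35, interval 1.83 to 3.41, limma adjusted p = 0.000491), or 6.14-fold. Mouse by mouse the value was 2.95, 2.44 and 2.47. A stretch of chromosome 15 is 96.0% identical to the gene over 750 bases. Of 12 squamous differentiation genes, 11 were also upregulated, from a summed 35.0–67.1 CPM in glands to 3152–5261 CPM in tumors, and their part in the *Klf4* result was not tested.

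*Myc* changed modestly. The gene (chromosome 15, 61816946 to 61821929, plus strand) had 26.6, 25.1 and 28.3 CPM in glands and 45.6, 42.1 and 34.6 CPM in tumors. Groups did not overlap, and glands were very close to each other. From 26.7 ± 1.60 CPM the mean went to 40.8 ± 5.60 CPM, a log2 fold change of 0.59 (SE 0.17, interval 0.21 to 0.98, limma adjusted p = 0.0218). It passed the adjusted p but not the fold threshold, and so was not called. The adjusted p (limma) rose to 0.0577 without gland M11640, 0.0703 without tumor T11035 and 0.0839 without tumor T11640. Its relatives *Mycn* (1.50 ± 1.36 to 7.94 ± 1.92 CPM, log2 fold change 2.26) and *Mycl1* (1.73 ± 0.768 to 8.53 ± 2.97 CPM, 2.01) were upregulated from low levels, which for *Mycn* included a gland with 3 fragments.

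Of the 25 MYC target genes listed, all in the table, 24 were higher in tumors and 13 passed the adjusted p, but 2 were upregulated by the full criterion. At an adjusted p alone, as above, 41.2% of all genes passed. Their median log2 fold change was 0.68. *Cad*, which starts pyrimidine synthesis, had the highest value (12.6, 8.09 and 7.66 CPM in glands and 20.8, 21.4 and 25.2 CPM in tumors, log2 fold change 1.23). *Rrp9*, a ribosomal RNA processing gene, had the lowest, at -0.05. The count of upregulated targets was 6 without gland M11035 and 1 without tumor T11035. Of 11 genes of the MYC dimerization network, 3 were upregulated and 1, *Mlxipl*, a carbohydrate-responsive factor active in fat and liver, was downregulated (64.0 ± 29.7 to 1.30 ± 1.30 CPM, log2 fold change -5.38). The adipocyte genes fell alongside it, and their part was not tested.

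The list of reprogramming factors, which includes *Klf4* and *Myc*, had 8 of 14 genes in the table. *Sox2*, *Pou5f1*, *Nanog*, *Lin28a*, *Sall4* and *Glis1* were not in it. The authors dropped genes with fewer than 10 fragments in total, and whether that removed these genes was not tested. Of the 8, 4 were upregulated and 1 was downregulated. The largest increase was in *Klf5*, an epithelial Krüppel-like factor, with 3.25, 2.97 and 5.75 CPM in glands and 69.2, 55.2 and 65.5 CPM in tumors. Tumors were above glands in every mouse (log2 fold change 3.87, SE 0.26, limma adjusted p = 1.28e-05). *Klf2*, a flow-responsive factor of endothelial cells and lymphocytes, fell from 11.5 ± 2.75 to 2.88 ± 0.831 CPM (log2 fold change -1.83, limma adjusted p = 0.00124). Across the Klf family, 2 of 14 genes were upregulated and 3 downregulated, and the median was 0.11 on the log2 scale. The lowest was *Klf15*, a glucocorticoid-responsive factor of fat and muscle, at 4.81 ± 0.553 CPM in glands and 0.560 ± 0.356 CPM in tumors (log2 fold change -2.39).

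**Figure D2:**
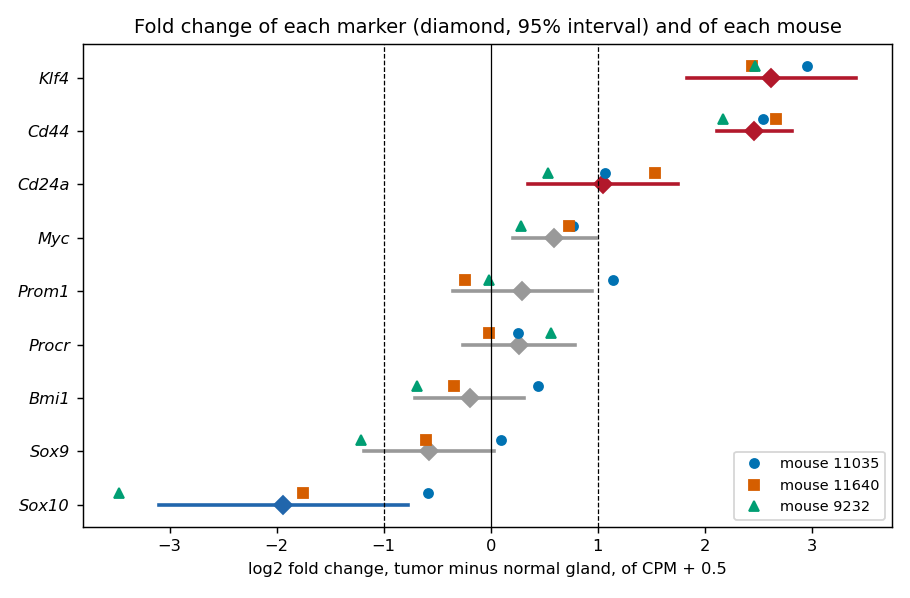
Log2 fold change (tumor over normal gland) of each marker, as a diamond with its 95% confidence interval from limma, and the fold change of each mouse as points; lines mark the 2-fold threshold in either direction. Klf4 and Cd44 lie beyond the upper line with all 3 mice, Sox10 has the widest interval, and Prom1, Procr, Sox9 and Bmi1 have intervals that include 0.

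*Sox10* was the only marker called downregulated. A factor of neural crest and of mammary basal and progenitor cells (chromosome 15, 78985343 to 78994920, minus strand), it had 3.05, 6.94 and 8.34 CPM in glands and 1.86, 1.70 and 0.300 CPM in tumors. Fragment numbers were small, at 15, 42 and 61 in glands and 10, 13 and 2 in tumors. All 3 tumors lay below all 3 glands, and T9232 was the lowest. Mean levels of 6.11 ± 2.74 and 1.29 ± 0.860 CPM gave a log2 fold change of -1.94 (SE 0.51, interval -3.10 to -0.78, limma adjusted p = 0.0156). By mouse it was -0.59, -1.75 and -3.47. Without gland M11640 the value was -1.80 and the call was lost (limma adjusted p = 0.0520).

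Cells of nerve and pigment can also express *Sox10*, and their markers were measured beside it. Of 8 Schwann cell genes, 3 were downregulated and 2 upregulated, and the summed level was 88.0–109 CPM in glands and 71.1–255 CPM in tumors. Among the downregulated genes were *Cdh19*, a cadherin of Schwann cell precursors (3.05, 7.60 and 7.93 CPM to 0.744, 0.393 and 0 CPM), and *S100b*, a calcium-binding protein of glia (16.1, 9.25 and 3.69 CPM to 2.23, 1.44 and 0.450 CPM). Both were low in the tumors, and *S100b* is named after its value was seen. These genes do not stand for the list, since its 2 upregulated genes went the other way. The median log2 fold change of the 8 Schwann cell genes was -0.77. Only 3 of 10 listed melanocyte genes were in the table, and *Tyrp1*, *Dct* and *Mlana* were among those absent. None of the 3 was called by limma, edgeR or DESeq2, and 0 had an unadjusted p under 0.05 in limma. Without tumor T9232, 5 Schwann cell genes were downregulated, and without gland M11640 1 was upregulated. The part of nerve in the *Sox10* difference was not tested.

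*Sox9* did not pass the test. This factor of luminal progenitors and cartilage (chromosome 11, 112643538 to 112649074, plus strand) had 20.3, 26.4 and 42.0 CPM in glands and 21.8, 17.2 and 17.8 CPM in tumors. Tumor T11035 lay above gland M11035, so the tissues overlapped. The log2 fold change was -0.57 (SE 0.27, interval -1.18 to 0.03, limma adjusted p = 0.118), with 0.10, -0.61 and -1.21 by mouse. It was -0.81 without gland M11035, where the adjusted p passed (limma, 0.0351), and -0.29 without gland M9232. Across the Sox family, 5 of 13 genes were upregulated and 3, including *Sox10*, were downregulated. *Sox11*, an embryonic factor, was the highest, with 1.22, 2.15 and 1.23 CPM in glands and 16.2, 28.7 and 14.1 CPM in tumors (log2 fold change 3.27, SE 0.33, limma adjusted p = 0.00011). *Sox6* was the lowest, at 50.8, 62.4 and 33.2 CPM in glands and 6.51, 7.47 and 4.20 CPM in tumors (log2 fold change -2.90, SE 0.29, limma adjusted p = 0.000109).

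*Bmi1* did not pass the test. Located on chromosome 2 (18598645 to 18608256, plus strand), it had 76.6, 107 and 98.2 CPM in glands and 105, 84.0 and 60.7 CPM in tumors. The tissues overlapped, and the mice gave 0.45, -0.34 and -0.69 on the log2 scale. Its log2 fold change was -0.20 (SE 0.22, interval -0.70 to 0.31, limma adjusted p = 0.514), an interval that leaves out a 2-fold change either way. A copy on chromosome X is 95.7% identical over 2890 bases. Among 17 PRC1 genes, 1 was upregulated and 2 were downregulated. The increase was in *Pcgf3*, a relative of *Bmi1* (35.1 ± 1.27 to 80.1 ± 8.12 CPM, log2 fold change 1.17), and the lowest value was that of *Cbx7*, a chromobox gene (20.8 ± 7.16 to 4.21 ± 1.94 CPM, -2.20). The decreases numbered 1 with a pseudocount of 2, without gland M11035 or without tumor T11035. They numbered 3 with a pseudocount of 0.1, edgeR or DESeq2, and without gland M11640 or tumor T9232. None of 7 PRC2 genes was called by limma, edgeR or DESeq2, although 3 were higher and 1 was lower at an unadjusted p under 0.05 in limma. Their log2 fold changes ran from -0.73 for *Ezh1* to 0.89 for *Jarid2*.

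**Figure D3:**
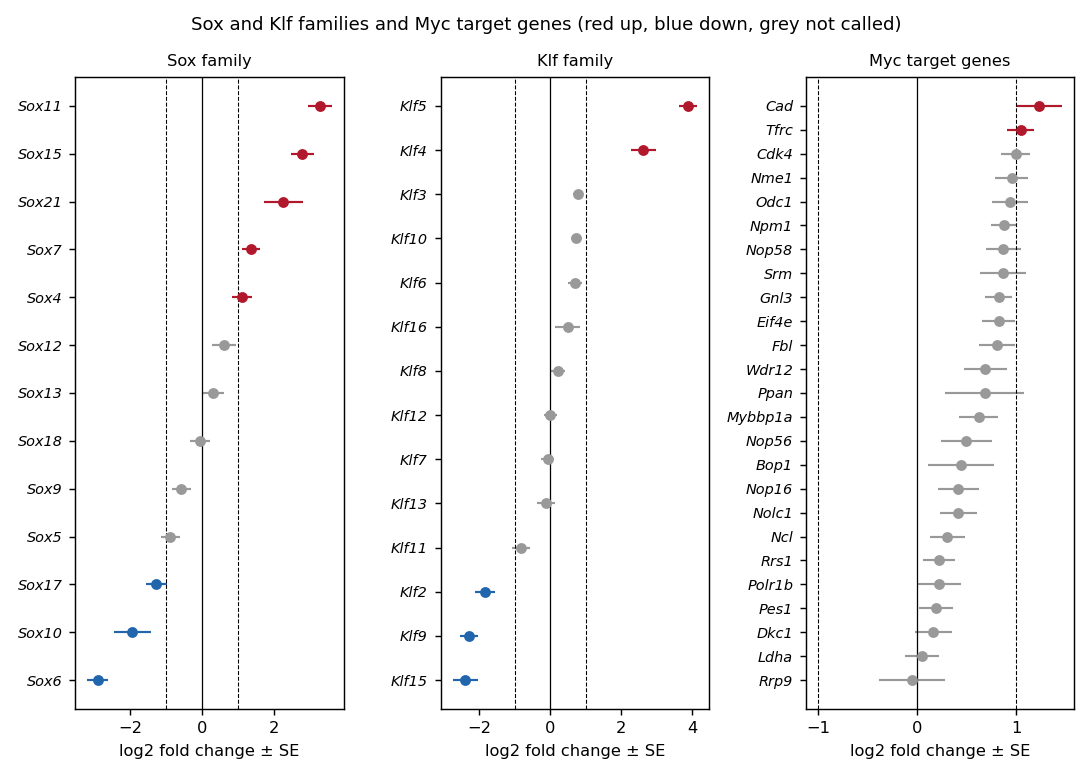
Log2 fold change (tumor over normal gland, ± SE) of each gene in the Sox family, the Klf family and the list of MYC target genes, with upregulated genes in red, downregulated genes in blue and dashed lines at a 2-fold change. The Sox and Klf panels have genes called in both directions, whereas 24 of the 25 MYC targets lie to the right of 0 and 2 are called.

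Hyaluronan and the other partners of CD44 were also examined. Of 17 genes for hyaluronan synthesis, CD44 ligands and CD44 processing, 10 were upregulated and 16 were higher in tumors, with a median log2 fold change of 1.17. Of all genes, 14.5% were upregulated, and the list was chosen with earlier results of these data known. *Vcan*, the hyaluronan-binding proteoglycan versican, was the highest, with 44.7, 122 and 56.5 CPM in glands and 1068, 1123 and 827 CPM in tumors (log2 fold change 3.87). *Has2*, a hyaluronan synthase, was at 5.90, 11.2 and 10.3 CPM in glands and 64.2, 66.2 and 34.3 CPM in tumors (2.51, named after its value was seen). Every tumor was above every gland for both. *Spp1*, the CD44 ligand osteopontin, was the lowest of the list and overlapped between tissues (2025 ± 1654 and 1259 ± 551 CPM, log2 fold change -0.33, limma adjusted p = 0.72). *Vcan* is also a stromal gene. Of 10 fibroblast markers, 3 were upregulated, 1 was downregulated and 6 were not called, with a median log2 fold change of 0.43. Their summed level was 1063–4474 CPM in glands and 8521–9187 CPM in tumors. The part of stroma in the *Cd44* result was not tested.

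Per kilobase of the longest coding transcript, the markers fell into a wide order of levels. In glands *Cd24a* was the highest (228 ± 113 CPM per kb), followed by *Cd44* (32.3 ± 5.73), *Bmi1* (26.1 ± 4.31), *Procr* (14.7 ± 2.49), *Myc* (11.4 ± 0.686), *Klf4* (9.64 ± 4.02), *Sox9* (7.15 ± 2.70), *Prom1* (4.40 ± 1.57) and *Sox10* (2.25 ± 1.01). Ranges of neighbors in that order overlapped except between *Cd24a* and *Cd44* and between *Bmi1* and *Procr*. In tumors the order was *Cd24a* (443 ± 83.4 CPM per kb), *Cd44* (176 ± 9.52), *Klf4* (57.4 ± 15.2), *Bmi1* (23.1 ± 6.11), *Procr* (17.9 ± 4.68), *Myc* (17.4 ± 2.40), *Prom1* (5.26 ± 1.05), *Sox9* (4.58 ± 0.602) and *Sox10* (0.475 ± 0.317). *Bmi1*, *Procr* and *Myc* were not separated from their neighbors among themselves, nor was *Prom1* from *Sox9*, while the other neighbors did not overlap. *Klf4* thus moved from place 6 to place 3.

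The balance of the surface markers *Cd44* and *Cd24a* was examined as a log2 ratio within each library, which does not depend on scaling between libraries. It was -0.92, -0.78 and -1.57 in the glands and 0.55, 0.34 and 0.06 in the tumors, in the same order of mice. By CPM, which is not corrected for transcript length, every gland had more *Cd24a* than *Cd44*, and every tumor had more *Cd44*. Per kilobase, *Cd24a* stayed above *Cd44* in every tumor (354, 456 and 519 against 167, 186 and 175 CPM per kb). The sign of the ratio therefore depends on length, whereas its shift between tissues does not. The mean went from -1.09 ± 0.42 to 0.32 ± 0.24 (SD, n = 3 each), a difference of 1.41. A two-sided exact permutation test of the 6 libraries gave p = 0.1, the smallest p that 3 against 3 allows. It shuffled the libraries without pairing them by mouse. These are tissue levels and do not show whether any cell carries both markers.

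Because normal glands are rich in fat, each marker was also set against the mean log2 level of 14 pan-epithelial genes, which itself rose by 1.77 (4.01 ± 0.51 to 5.78 ± 0.27 log2 CPM). On that scale *Cd44* was higher in tumors by 0.69 and *Klf4* by 0.85, and the other 7 markers were lower. The differences were -0.72 for *Cd24a*, -1.17 for *Myc*, -1.47 for *Prom1*, -1.50 for *Procr*, -1.96 for *Bmi1*, -2.34 for *Sox9* and -3.70 for *Sox10*. Tumors and glands did not overlap for 8 of the 9, each with p = 0.1 in a two-sided exact permutation test, the smallest it can give, and overlapped for *Klf4* (p = 0.2). This test also left out the pairing by mouse. The share of all genes that did not overlap on this scale was not computed. The scale corrects for fat only where the RNA of a marker comes from epithelium. Other cell types named above also carry some of these markers, and their part was not tested. A gene unchanged by CPM is lower on this scale by the 1.77 that the reference rose. The median log2 fold change of all genes by CPM was -0.00276, so a lower value here is not particular to the markers. The reference was itself uneven, with log2 fold changes from 0.45 for *Spint2* to 3.99 for *Cldn4*. With *Epcam* alone as the reference, *Cd24a* turned to 0.49 and *Myc* to 0.04, while *Cd44* was at 1.90 and *Klf4* at 2.06. With *Cdh1* alone, *Cd44* was at 0.13 and *Klf4* at 0.29. *Prom1*, *Procr*, *Sox9*, *Sox10* and *Bmi1* were lower with all 3 references, from -0.26 (*Prom1*) to -2.49 (*Sox10*) with *Epcam* and from -2.03 (*Prom1*) to -4.26 (*Sox10*) with *Cdh1*.

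**Figure D4:**
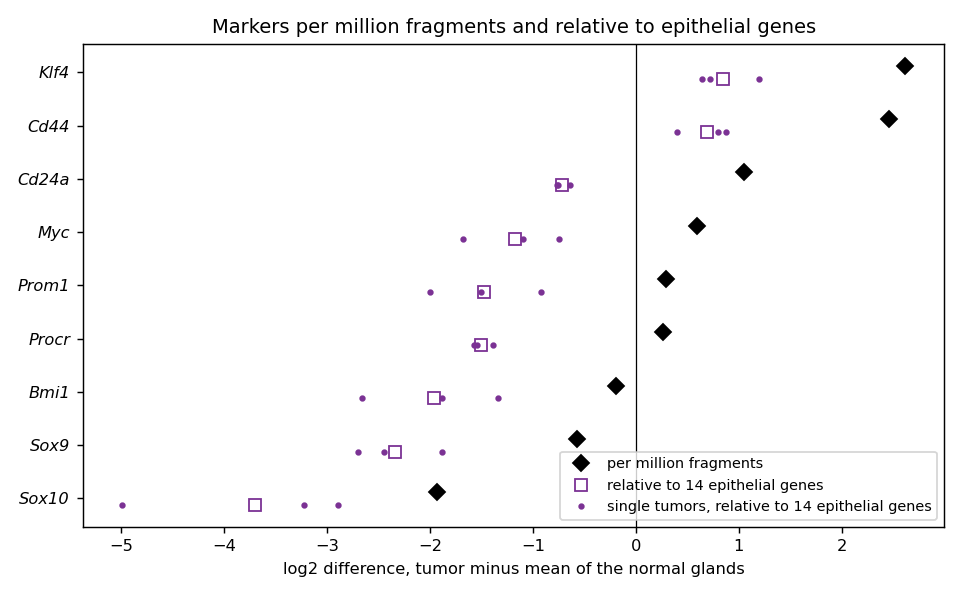
Tumor minus normal gland difference (log2) of each marker by CPM and relative to the mean of 14 pan-epithelial genes. On the epithelial scale 7 markers lie to the left of 0, and Cd44 (0.69) and Klf4 (0.85) lie to the right.

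Beyond the 9 markers, 25 of 26 other stem and progenitor genes were in the table, with 7 upregulated, 4 downregulated and a median log2 fold change of 0.56. With the mouse as a block, 8 were upregulated by limma and by edgeR, and 4 downregulated. Genes of basal cells were among the increases, although of 12 basal and myoepithelial genes 7 were upregulated and 3 downregulated. The values below are by CPM and were not set against the pan-epithelial genes, whose mean log2 level rose by 1.77. *Trp63*, the basal epithelial regulator p63, went from 21.6, 46.6 and 37.2 CPM in glands to 467, 363 and 278 CPM in tumors (log2 fold change 3.41, SE 0.29, limma adjusted p = 4.73e-05). The integrins used to sort basal mammary cells rose as well, with *Itga6* at 205 ± 26.2 CPM in glands and 629 ± 109 CPM in tumors (1.61) and *Itgb1* at 414 ± 62.0 and 948 ± 162 CPM (1.19). The R-spondin receptors *Lgr5* (1.89 ± 0.669 to 17.9 ± 1.53 CPM, 2.98) and *Lgr6* (3.39 ± 1.69 to 21.9 ± 11.9 CPM, 2.46) were upregulated from low levels. *Nes*, an intermediate filament gene of neural progenitors, had a log2 fold change of 1.08.

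The 4 decreases were in *Elf5*, *Kit*, *Tspan8* and *Aldh1a1*. All 10 adipocyte genes also fell, and the part of cell content in these decreases was not tested. *Elf5*, the alveolar progenitor factor, had 23.2, 36.8 and 82.2 CPM in glands and 8.75, 6.03 and 5.09 CPM in tumors (log2 fold change -2.59, SE 0.42, limma adjusted p = 0.00154). *Kit*, a receptor kinase of luminal progenitors, went from 79.7 ± 21.8 to 32.8 ± 11.3 CPM (-1.28), and *Tspan8*, a tetraspanin, from 18.6 ± 8.13 to 5.55 ± 1.03 CPM (-1.56). Every tumor was below every gland for these genes. The aldehyde dehydrogenases used as stem cell markers split in direction. *Aldh1a1* went from 37.8, 56.0 and 46.9 CPM to 2.79, 3.01 and 2.10 CPM (-3.91, SE 0.23, limma adjusted p = 7.23e-06), whereas *Aldh1a3* went from 9.96, 21.5 and 13.4 CPM to 30.7, 45.5 and 37.8 CPM (1.37, SE 0.29, limma adjusted p = 0.00535). *Ly6a*, the SCA-1 antigen, was not called, with a log2 fold change of 1.24 (202 ± 124 to 415 ± 103 CPM, limma adjusted p = 0.0589).

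**Figure D5:**
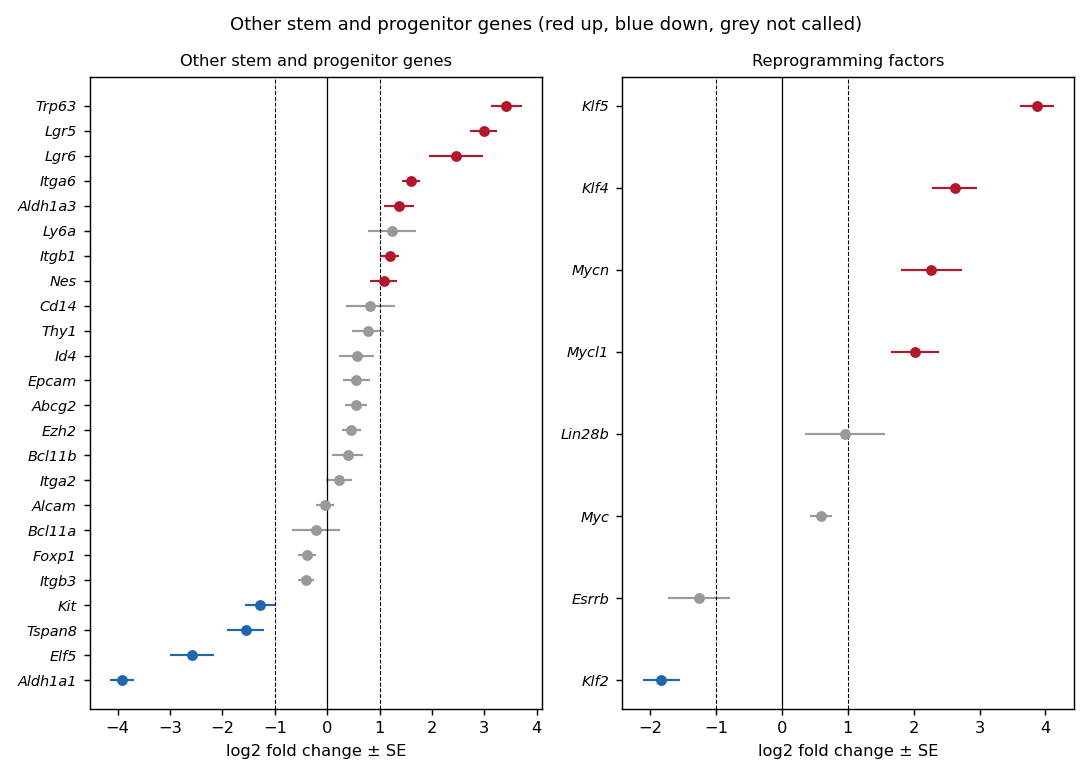
Log2 fold change (tumor over normal gland, ± SE) of 24 of the other stem and progenitor genes and of the 8 reprogramming factors in the table, with called genes in color. Trp63 (3.41) and Klf5 (3.87) are the highest of their lists, and Aldh1a1 (-3.91) is the lowest value shown.

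Markers of differentiated layers were read beside these genes. Of 12 basal and myoepithelial genes, 7 were upregulated and 3 downregulated, with a summed level of 386–834 CPM in glands and 2132–2442 CPM in tumors. All 9 alveolar genes were downregulated. Of 9 hormone-sensing luminal genes, 3 were upregulated and 4 downregulated, and without tumor T11640 or tumor T9232 these counts were 1 and 2. The part of these layers in the levels of the stem and progenitor markers was not tested.

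The genes whose profile over the 6 libraries lay nearest to each marker were sought among the 14712 genes averaging at least 1 CPM, by Euclidean distance of median-centered log2 values. For *Cd44* they were *Esrp2* (distance 0.23) and *Ptgs1* (0.27), and for *Klf4* they were *Mfap4* (0.29) and *Rab25* (0.50). *Cd24a* was nearest to *Card14* (0.34) and *Havcr2* (0.36), and *Myc* to *Nup155* (0.13) and *Trmt6* (0.17). *Sox10*, with 2 to 61 fragments per library, was nearest to *Wdr72* (0.63) and *Shank2* (0.67). Distances grow with counting error, so they are not compared between markers. The nearest genes were *Trim21* (0.12) and *Rap1gap2* (0.28) for *Sox9*, *Ugt1a5* (0.18) and *Sema6a* (0.24) for *Bmi1*, *Sox13* (0.29) and *Pcdhgb4* (0.33) for *Prom1*, and *Tmem106a* (0.21) and *D230037D09Rik* (0.23) for *Procr*. With 6 libraries from 3 mice, these are descriptions of likeness only.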

How the data were processed

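Total RNA from 3 tumors and 3 adjacent normal glands of the same BK5.ATF3 mice was amplified with the Ovation RNA-Seq System V2 and sequenced. The authors mapped read pairs to mm9 (TopHat2 2.0.3, after CASAVA 1.8.2), counted fragments per RefSeq gene (HTSeq 0.5.3p9) and deposited 1 table of CPM values (fragment counts scaled) on the effective library size of edgeR 3.6.1. This deposited normalized signal is not a raw count, although 100% of its values were whole fragments (within 0.001) once divided by the step of 1 fragment. Library totals were 4750989 to 7806908 recovered fragments, every listed gene had at least 11 fragments in total, and 0 columns were left out. Floors cover counting error only.

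Here log2(CPM + 0.5) was fitted with limma 3.58.1 (R 4.3.3, mean-variance trend, no block, two-sided), adjusted by Benjamini-Hochberg over 15280 genes and tested on simulated data. Fold changes are on that scale and understate changes of low genes. Ratios within libraries were compared by exact permutation tests that did not pair the tissues by mouse. Alternatives were other pseudocounts, no trend, a filter at 1 CPM, rescaling, the mouse as a block, edgeR 4.0.16 and DESeq2 1.42.0 on recovered fragments, and leaving out each library. The tissues share animals, which pairs them by mouse; paired deviations correlated at 0.107, 0.151 and 0.0168 over 14712 genes. Named genes are the 9 markers, the genes of the stem and reprogramming lists, the highest and lowest gene of each other list (mean of at least 1 CPM) and the 2 nearest in profile to each marker. The markers and lists were chosen with earlier results of these data known. Gene positions are from the GENCODE annotation of mm9 and near-identical copies from BLAST 2.17.0; promoters are from RefSeq. Some genes of the lists are counted but not reported by name here.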

Additional observations from a re-analysis of the deposited data

How the results depend on the processing

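*Cd44* and *Klf4* were called upregulated in all 15 alternatives, with log2 fold changes of 2.38 to 2.60 and 2.22 to 2.87. *Cd24a* was called in 8 of 15. It was lost with edgeR (log2 fold change 0.96), DESeq2 (0.97), no mean-variance trend (1.05, limma adjusted p = 0.0511) and 4 of 6 fits without 1 library. In the paired fits, with the mouse as a replicate block, 3 markers were upregulated and 1 downregulated by both limma and edgeR. The replicate block gave *Cd24a* a limma adjusted p of 0.00555 and brought it back among the edgeR calls, and it changed no other call of a marker. *Sox10* was called in 14 of 15, with log2 fold changes from -2.35 (pseudocount 0.1) to -1.28 (pseudocount 2). *Myc* (0.51 to 0.71) and *Sox9* (-0.81 to -0.29) were called in none of the 15. Without each library in turn, the number of upregulated markers ran from 2 to 3 and of downregulated markers from 0 to 1, the 0 arising without gland M11640. The log2 fold change of *Bmi1*, which was not called, ran from -0.38 to 0.012 over the same fits, and turned sign without tumor T9232. Relative to the 14 epithelial genes, *Cd24a* was at -0.53 with a pseudocount of 2. The single references *Epcam* and *Cdh1* were chosen after seeing the data. List counts moved by more than 1.5 times in 45 of 780 cases, among them the skeletal muscle genes, of which 3 were downregulated in limma and 8 in edgeR and DESeq2. The cause of these changes was not tested. Depth limits *Sox10*, with 2 to 13 fragments in the tumors.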
